A study of Homo sapiens with 6 samples.

Results

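The 36 genes described here encode the machinery that brings proteins into the endoplasmic reticulum (ER) and attaches the first glycan to them. They were chosen by name as subunits of the signal recognition particle (SRP, 6 genes), the SRP receptor (2 genes), the Sec61 channel and its partners (8 genes), the translocon-associated protein complex (TRAP, 4 genes), signal peptidase (5 genes) and oligosaccharyltransferase (11 genes). The rule itself uses no measured value, though the genes were proposed with earlier results of these data known. Probes were assigned through their RefSeq accession, and all 36 genes were measured, by 47 of the 34127 probes on the array. They are 36 of the 16821 genes that had a tested probe.

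The cells were of CAL-27, an established line of human tongue squamous carcinoma. The line had been stably transduced with a short hairpin RNA that targets XBP-1s (group shXBP-1s, 3 samples) or with a control hairpin (group shCtrl, 3 samples), and total RNA of each sample was read on its own single-colour Agilent array. The labels name no drug or time point, and the study describes its experiments in general as independent repeats without saying, for these arrays, whether the 3 samples of a group were separate cultures or transductions. The p-values below measure the spread between these samples, which may be technical. The RNA came from whole cultures, in which less RNA per cell and fewer cells of one kind cannot be told apart.

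XBP-1s is the transcription factor made when the ER stress sensor IRE1α splices the XBP1 mRNA, and genes of ER protein import and folding are among its known targets. SRP binds the signal sequence of a nascent chain and hands the ribosome to its receptor on the ER membrane; the chain then enters the Sec61 channel. Signal peptidase removes the signal sequence and oligosaccharyltransferase moves a preassembled glycan from a lipid onto asparagine residues of the entering chain.

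Signals are given as array-scaled log2 values, in which 0 is the 75th percentile of the array. This percentile lay at 687–761 intensity units on the shCtrl arrays and at 792–983 on the shXBP-1s arrays. The share of spots well above background was 82.1% to 84.8%, and no spot was saturated. By scan time the arrays fell into 2 sets, each with 1 shared time. These sets are called slides here, although no label naming a slide was read. Slide 1 held shCtrl replicates 2 and 3, and slide 2 held shCtrl replicate 1 and all 3 shXBP-1s arrays. Slide and group can therefore be told apart only through shCtrl replicate 1. XBP1 itself read 1.88, 1.85 and 1.87 on the shCtrl arrays and -0.50, -0.54 and -0.52 on the shXBP-1s arrays, a log2 fold change of -2.39 (SE 0.04, adjusted p = 2.81e-07 by limma). The files used here do not show whether this probe reads the spliced or the unspliced mRNA. All 9 squamous epithelial markers were well above background on the 6 arrays, at intensities of 177.5 to 66192. Of 9 markers of leukocytes, endothelium, fibroblasts and liver, 8 also passed that call, at 5.63 to 361.9 for the whole list, and albumin (ALB) passed it on 3 arrays. With the knockdown, 7 of the 9 squamous markers were higher, against 18.9% of all tested genes, by up to 4.28 on the log2 scale for KRT6A. The fibroblast markers COL1A1 and ACTA2 were lower, and the third, COL1A2, read -0.07 and did not pass the test. The part of these markers in the results below was not tested.

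The genes of ER entry moved in both directions, more of them down than up. Taking the brightest tested probe of each gene, 15 of the 36 genes (41.7%) were lower with the knockdown, called at an adjusted p under 0.05, against 27.5% of all tested genes. Another 7 were higher, or 19.4%, against 18.9% of all genes, and 14 did not pass the test. After normexp background correction, the split was 8 lower and 8 higher members (22.2% each), against 11.5% and 9.27% of all genes. The changes were small. The median log2 fold change of the 36 genes was -0.11 (range -1.02 to 0.75) and that of all tested genes -0.04. The member median thus differed from that of all genes by -0.07, and after normexp background correction by 0.26. Of the 36 genes, 3 fell by at least 1.5-fold (SEC62, SSR1 and OSTC), where 9.05% of all genes did, and 1 rose by as much (SPCS3), where 6.48% did. SEC62 was the 1 member lower by at least 2-fold, against 2.88% of all genes, and no member was higher by at least 2-fold, against 2.3%.

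On 19 members (52.8%), all 3 shXBP-1s arrays lay below all 3 shCtrl arrays, which held for 32.2% of all genes. On 8 members they lay above (24.3% of all genes), and on 9 the groups overlapped. The median of the 36 genes, taken as the difference from the shCtrl mean, was -0.15, -0.11 and -0.07 on shXBP-1s replicates 1 to 3, against -0.04, -0.03 and -0.04 for all genes. Counted over probes, 20 of the 46 tested member probes were lower (43.5%, against 23.3% of all tested probes) and 8 were higher (17.4%, against 18.4%). By complex, SRP, TRAP and the Sec61 group each held 50% lower genes, with 1 higher gene among them, and oligosaccharyltransferase held 27.3% lower and 36.4% higher, against 27.5% and 18.9% of all genes; the complexes are small and the difference between them was not tested. After normexp background correction the lower genes were 1 in SRP, 2 in the Sec61 group, 2 in TRAP and 1 in oligosaccharyltransferase, against 11.5% of all genes. The higher genes were then 1 in the Sec61 group, 5 in oligosaccharyltransferase and none in SRP or TRAP, against 9.27% of all genes.

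**Figure D1:**
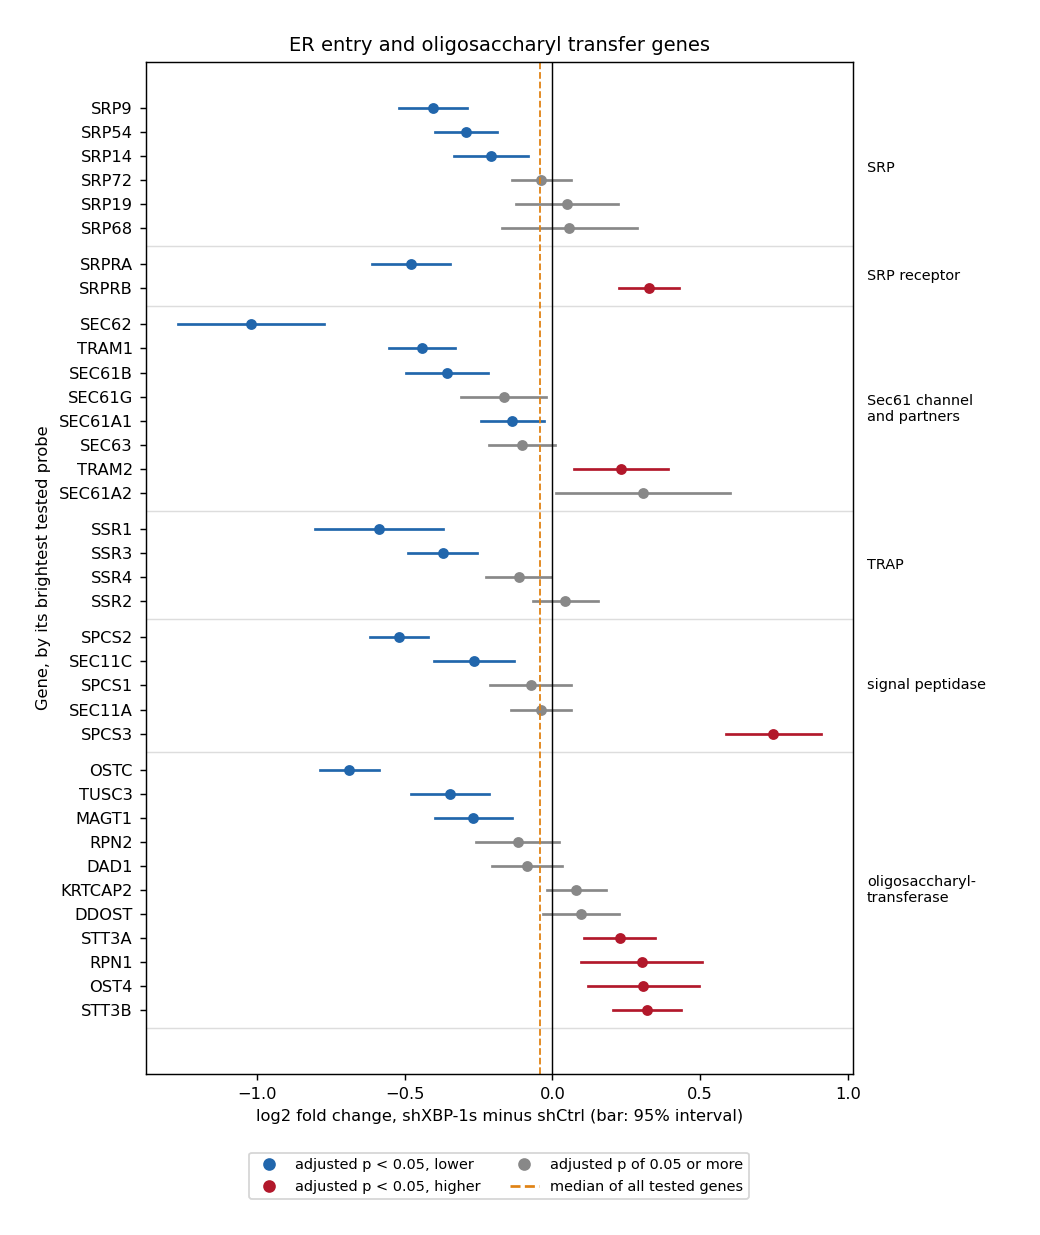
Log2 fold change of each of the 36 genes (shXBP-1s minus shCtrl, n = 3 arrays per group), by complex, with bars for the 95% interval from limma; blue genes were lower and red genes higher at an adjusted p below 0.05, and grey genes did not pass. SEC62 at -1.02 is the lowest and SPCS3 at 0.75 the highest, and the dashed line marks the median of all tested genes at -0.04.

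Of the 22 calls, 12 held under all 18 alternative settings, none of which asked for a minimum fold change. SEC62, OSTC, SSR1, SSR3, SPCS2, SRP9, SRPRA and TRAM1 were lower each time, and SPCS3, SRPRB, STT3A and STT3B higher. With the slide as a block, which sets the shXBP-1s arrays against shCtrl replicate 1, 18 of the 22 calls were kept; RPN1, SEC11C, SEC61A1 and TRAM2 were lost.

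The promoters of the group were read for motifs of XBP-1s, from RefSeq windows on GRCh38.p14 that run from 250 bases before a transcription start to 50 after it. Such a window existed for 30 of the 36 genes (38 windows, since some genes have several starts); the other 6 genes (RPN1, SPCS1, SRPRA, STT3B, TRAM1 and TUSC3) are named only. The unfolded protein response element TGACGTGG, searched on both strands, stood in 4 of the 38 windows (10.5%), against 0.729% of all 35116 windows and 0.761% of the 22199 windows of protein-coding genes. The 4 genes were SEC62 and SSR3, which were lower, and SRP19 and SSR4, which did not pass the test. These 4 stretches are shown because they hold the motif that was rarest among all promoters of those found in the group. Each is printed 5′ to 3′ along the strand of its gene, with the element in capitals; it reads CCACGTCA, since the match lay on the opposite strand each time.
SEC62: ccctcctcgctCCACGTCAgagggaacc
SSR3: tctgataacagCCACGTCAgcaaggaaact
SRP19: aagtcttcatgCCACGTCAgagactagaga
SSR4: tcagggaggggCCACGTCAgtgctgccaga
The SEC62 stretch is chr3:169966779-169966806 on the plus strand, where the element ended 9 bases before the start. That of SSR3 is chr3:156554148-156554177 on the minus strand, 33 bases before 1 of 3 starts. SRP19 held it at chr5:112861164-112861193 on the plus strand, 104 bases before its start, and SSR4 at chrX:153794528-153794557 on the plus strand, 121 bases before 1 of 2 starts.

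The shorter core CCACG, which every TGACGTGG match contains and which was also searched on both strands, stood in 24 of the 38 windows (63.2%), against 38.1% of all windows and 43.1% of those of protein-coding genes. By call, 8 of 12 lower genes, 2 of 5 higher genes and 10 of 13 genes that did not pass held a CCACG. The TGACGTGG element was held by 2 of 12, 0 of 5 and 2 of 13. The ER stress response element, spelled CCAAT, 9 bases of any kind and CCACG, was in none of the 38 windows and in 0.0769% of all. A match is a run of letters and no measure of binding, and genes without one in these windows may carry it elsewhere.

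The cytosolic SRP is built of an RNA and 6 proteins, and 3 of the 6 protein genes were lower in shXBP-1s with none higher. SRP9, one protein of the pair that holds the Alu end of the RNA and pauses elongation, changed by -0.41 (SE 0.05, adjusted p = 0.000372), and its other 2 probes gave -0.47 and -0.48. All 3 of its probes passed the test. SRP14, the partner of SRP9 in that pair, changed by -0.21, and SRP54, the GTPase that holds the signal sequence, by -0.29. The call of SRP14 was lost without shXBP-1s replicate 2 (adjusted p = 0.0679 by limma), under quantile normalization (-0.08) and in the deposited log2 values (-0.10). After normexp background correction neither SRP14 (-0.10) nor SRP54 (-0.17) passed. SRP19, which helps SRP54 onto the RNA, read 0.05 by 1 probe and -0.05 by a dimmer one, SRP68 read 0.06, and none of these passed. SRP72, which joins SRP68, gave -0.04 on its brightest probe, which did not pass. Its dimmer probe gave -0.61 (SE 0.06, adjusted p = 0.000102), with 0.98, 1.09 and 1.05 on the shCtrl arrays and 0.34, 0.44 and 0.52 on the shXBP-1s arrays. The 2 SRP72 probes carry the same accession, and which transcripts each one reads is not known from these files.

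The 2 subunits of the SRP receptor moved in opposite directions. SRPRA, the GTPase that docks with SRP54, changed by -0.48 (SE 0.06, adjusted p = 0.000305). SRPRB, the membrane anchor of the receptor, changed by 0.33 (SE 0.04, adjusted p = 0.000619). On neither gene did the groups overlap, and within slide 2 the differences were -0.47 and 0.33.

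In the Sec61 group, 4 of 8 genes were lower and 1 was higher. SEC62, a membrane partner of the channel that serves proteins entering after translation, showed the largest fall of the 36 genes and was the 460th lowest of 16821. It read -2.35, -2.59 and -2.44 on the shCtrl arrays and -3.30, -3.47 and -3.66 on the shXBP-1s arrays. The groups lay apart, with the shXBP-1s arrays spread over less than the gap between them. The log2 fold change was -1.02 (SE 0.11, 95% interval -1.27 to -0.77, adjusted p = 0.000159), or 49.3% of the shCtrl level, and -1.13 within slide 2. SEC62 was a dim probe, at 62.7 to 139.5 intensity units, and its change was -0.60 after normexp background correction with quantile normalization. Without shCtrl replicate 1 it was -0.97 and without shXBP-1s replicate 3 it was -0.93, just short of 2-fold.

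The pore of the channel is formed by SEC61A1 or its paralog SEC61A2, with the small subunits SEC61B and SEC61G. SEC61A1 read 0.08, 0.12 and 0.16 on the shCtrl arrays and -0.04, 0.02 and -0.03 on the shXBP-1s arrays. The groups were close but did not overlap, and the change was -0.14 (SE 0.05, adjusted p = 0.0447). This call was lost without any 1 array except shCtrl replicate 1 (adjusted p between 0.0889 and 0.152), with the slide as a block (-0.10), with the replicate number as a block (adjusted p = 0.0850), in the deposited log2 values (-0.10) and after normexp background correction (-0.12). SEC61A2 read -4.30, -4.46 and -4.11 on the shCtrl arrays and -4.17, -3.91 and -3.86 on the shXBP-1s arrays. Its groups overlapped and its change of 0.31 (SE 0.13, adjusted p = 0.0888) did not pass; without shXBP-1s replicate 1 it was 0.40 (adjusted p = 0.0471), and after normexp background correction it was -0.55. A second SEC61A2 probe was not tested, being above background on 0 shCtrl and 2 shXBP-1s arrays. SEC61B changed by -0.36 (SE 0.06, adjusted p = 0.00199), a call lost after normexp background correction (-0.17). SEC61G gave -0.16 with groups that did not overlap but an adjusted p of 0.0669 by limma; without shXBP-1s replicate 3 it was -0.22 (adjusted p = 0.0199).

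SEC63 recruits the chaperone BiP to the channel from the lumen. Its brightest probe gave -0.10 (adjusted p = 0.129) and its dimmer probe, of the same accession, -1.32 (SE 0.09, adjusted p = 1.82e-05). The dimmer probe read -2.04, -2.19 and -2.17 on the shCtrl arrays and -3.35, -3.38 and -3.62 on the shXBP-1s arrays, and its change was -0.80 after normexp with quantile normalization. The probes of SEC63 therefore differed in size of change, and the gene was counted by the bright one.

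TRAM1 and TRAM2 are paralogs that line the path of the chain next to the channel, and they moved apart. TRAM1 read 3.40, 3.41 and 3.43 on the shCtrl arrays and 2.92, 2.95 and 3.04 on the shXBP-1s arrays. The change was -0.44 (SE 0.05, adjusted p = 0.000190), with every shXBP-1s array low. TRAM2 read 0.75, 0.51 and 0.74 on the shCtrl arrays and 0.91, 0.89 and 0.90 on the shXBP-1s arrays. Here every shXBP-1s array was high, and shCtrl replicate 2 lay below the other controls. The change of TRAM2 was 0.23 (SE 0.07, adjusted p = 0.0289), a call lost without any 1 of the shXBP-1s arrays (adjusted p between 0.0689 and 0.0798), and with the slide as a block (0.15).

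**Figure D2:**
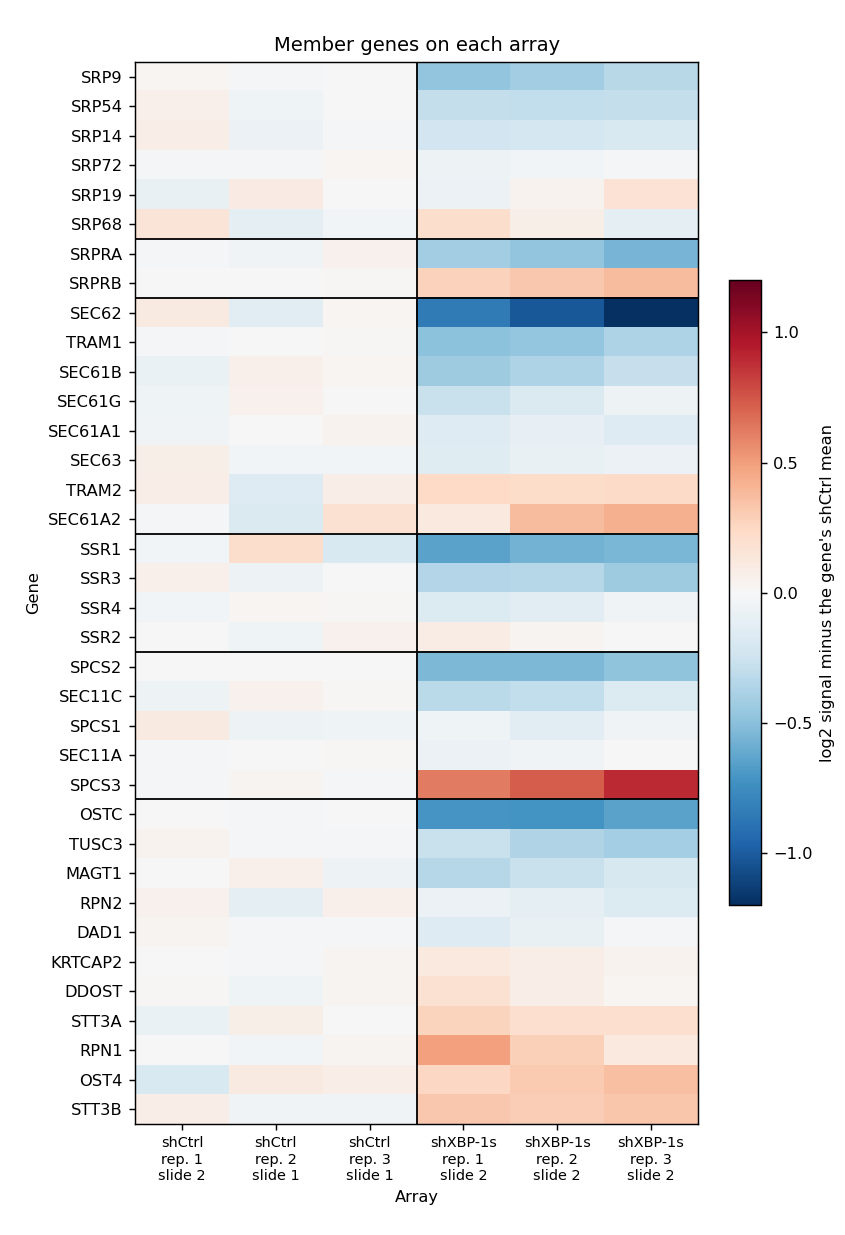
Array-scaled log2 signal of the 36 genes (rows, by complex) on the 6 arrays (columns, with slide), each minus the gene's shCtrl mean; blue is lower and red higher, and black lines separate complexes and groups. The 3 shXBP-1s columns resemble each other, also on the darkest rows (SEC62, OSTC, SPCS3), and shCtrl replicate 1, the control on the slide of the knockdown arrays, stays pale.

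TRAP sits beside the Sec61 channel and helps chains with weak signal sequences to enter. Of its 4 subunit genes, 2 were lower and none was higher. SSR1, the alpha subunit, read 3.39, 3.63 and 3.24 on the shCtrl arrays and 2.78, 2.86 and 2.87 on the shXBP-1s arrays. The control arrays were spread more widely than the knockdown arrays, but the groups did not overlap. The change was -0.59 (SE 0.09, adjusted p = 0.00147), just past 1.5-fold, and -0.56 within slide 2. Without shCtrl replicate 2 it was -0.48 and without shXBP-1s replicate 1 it was -0.56. After normexp background correction it was -0.43, with quantile normalization added -0.52, and in the deposited log2 values -0.53. All of these, and the change with the slide as a block, were below 1.5-fold and still called.

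SSR1 was measured by 3 probes of the same accession, which did not give the same size. Its second probe read 1.95, 2.00 and 1.89 on the shCtrl arrays and 1.89, 1.94 and 1.99 on the shXBP-1s arrays, a change of -0.01 that did not pass. Its dimmest probe gave -0.89 (SE 0.06, adjusted p = 2.24e-05). SSR3, the gamma subunit, changed by -0.37 (SE 0.05, adjusted p = 0.000664), with 0.14, 0.03 and 0.09 on the shCtrl arrays and -0.26, -0.26 and -0.34 on the shXBP-1s arrays. SSR2 read 0.04 and SSR4 -0.11, neither past the test; without shXBP-1s replicate 3, SSR4 passed at -0.15 (adjusted p = 0.0370 by limma).

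**Figure D3:**
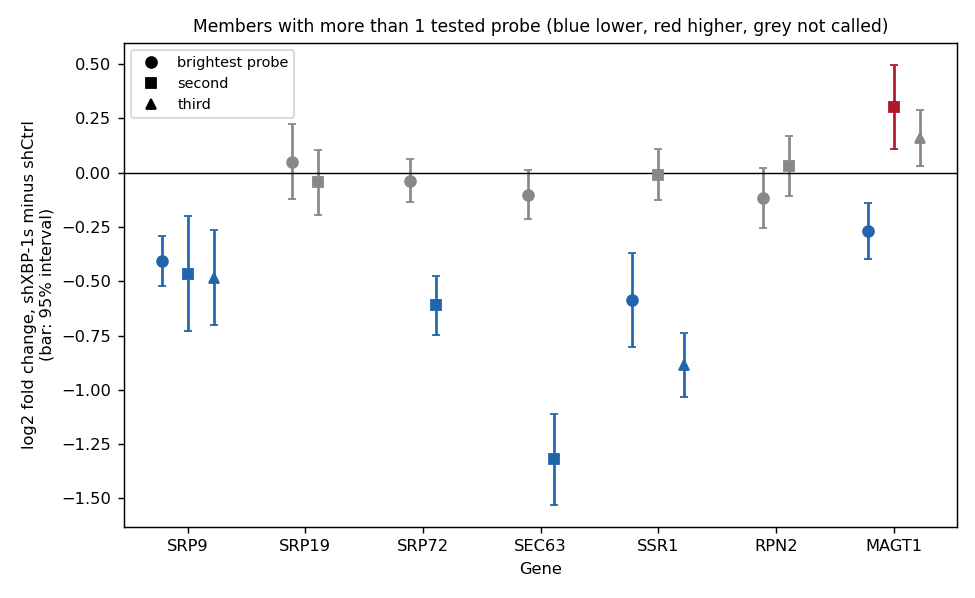
Log2 fold change (shXBP-1s minus shCtrl) of every tested probe of the 7 genes with more than 1, with 95% intervals from limma; the circle is the brightest probe of a gene, and blue, red and grey mark lower, higher and not called. The probes of SRP9, SRP19 and RPN2 lie close together, whereas those of SRP72, SEC63, SSR1 and MAGT1 do not.

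Signal peptidase held the largest rise of the 36 genes. SPCS3, the subunit that spans the membrane beside the catalytic one, read 2.12, 2.17 and 2.12 on the shCtrl arrays and 2.76, 2.86 and 3.03 on the shXBP-1s arrays. All shXBP-1s arrays were high and the groups lay well apart. The change was 0.75 (SE 0.07, 95% interval 0.59 to 0.91, adjusted p = 8.35e-05), or 167.9% of the shCtrl level, and 0.77 within slide 2. SPCS2, another accessory subunit of the same complex, went the other way, with 3.98, 3.98 and 3.99 on the shCtrl arrays and 3.45, 3.45 and 3.50 on the shXBP-1s arrays. Its change was -0.52 (SE 0.04, adjusted p = 4.54e-05). SPCS1 gave -0.07 and did not pass.

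The catalytic subunit of signal peptidase is either SEC11A or SEC11C. SEC11A read 3.98, 4.01 and 4.02 on the shCtrl arrays and 3.94, 3.97 and 4.00 on the shXBP-1s arrays, with overlapping groups and a change of -0.04 (95% interval -0.14 to 0.06). SEC11C read 0.66, 0.77 and 0.73 on the shCtrl arrays and 0.39, 0.42 and 0.55 on the shXBP-1s arrays. Its groups did not overlap and its change was -0.27 (SE 0.06, adjusted p = 0.00738), a call lost with the slide as a block (-0.20, adjusted p = 0.0894) and after normexp background correction (-0.16).

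Oligosaccharyltransferase was divided between its subunits. Both catalytic subunits were higher. STT3A, which acts on chains still entering through the channel, read 2.18, 2.33 and 2.26 on the shCtrl arrays and 2.53, 2.46 and 2.46 on the shXBP-1s arrays, a change of 0.23 (SE 0.05, adjusted p = 0.00912). STT3B, which also acts after entry, read 0.28, 0.16 and 0.16 on the shCtrl arrays and 0.52, 0.50 and 0.54 on the shXBP-1s arrays, a change of 0.32 (SE 0.05, adjusted p = 0.00127). On both genes all knockdown arrays lay above all controls.

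OSTC, the subunit that ties the STT3A form of the enzyme to the Sec61 channel, showed the second largest fall of the 36 genes. It read 1.68, 1.66 and 1.68 on the shCtrl arrays and 0.96, 0.96 and 1.03 on the shXBP-1s arrays. The 3 arrays of each group nearly coincided. The change was -0.69 (SE 0.04, 95% interval -0.79 to -0.59, adjusted p = 1.17e-05), or 62.1% of the shCtrl level, and -0.69 within slide 2. It was -0.59 to -0.71 over the alternatives. KRTCAP2, the other subunit particular to the STT3A form, read 0.08 (95% interval -0.02 to 0.18) and did not pass.

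TUSC3 and MAGT1 are alternative oxidoreductase subunits of the STT3B form. TUSC3 read -1.24, -1.30 and -1.30 on the shCtrl arrays and -1.55, -1.64 and -1.69 on the shXBP-1s arrays. Every knockdown array was low, and the change was -0.35 (SE 0.06, adjusted p = 0.00170), a call lost after normexp background correction (-0.44, adjusted p = 0.0593). The brightest of 3 MAGT1 probes read 2.09, 2.15 and 2.03 on the shCtrl arrays and 1.74, 1.82 and 1.90 on the shXBP-1s arrays, a change of -0.27 (SE 0.06, adjusted p = 0.00598). A second MAGT1 probe went the other way, with 0.12, 0.15 and -0.15 on the shCtrl arrays, 0.28, 0.36 and 0.39 on the shXBP-1s arrays and a change of 0.30 (SE 0.08, adjusted p = 0.0214). The third gave 0.16 and did not pass. The mean over the 3 probes was 0.06 (adjusted p = 0.328), so the direction of MAGT1 depends on the probe; its call was also lost after normexp background correction (-0.17).

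The other subunits of the enzyme are common to both of its forms. RPN1, a membrane subunit that binds ribosomes and some substrates, was higher by 0.30 (SE 0.09, adjusted p = 0.0271), with 0.52, 0.32 and 0.15 on the shXBP-1s arrays against 0.04, -0.01 and 0.06 on the shCtrl arrays. Its knockdown arrays were widely spread, and the call was lost without shCtrl replicate 2 (adjusted p = 0.0766), without shCtrl replicate 3 (adjusted p = 0.0569), without shXBP-1s replicate 2 (adjusted p = 0.0711) and with the slide as a block (adjusted p = 0.131). OST4, a very small subunit that holds the catalytic one in place, was higher by 0.31 (SE 0.08, adjusted p = 0.0168). Its call was lost without shXBP-1s replicate 2 (adjusted p = 0.0554) and without shXBP-1s replicate 3 (adjusted p = 0.0550), and within slide 2 the difference was 0.49. RPN2 read -0.12 and 0.03 on its 2 probes, DDOST 0.10 and DAD1 -0.09, none past the test; without shCtrl replicate 2, RPN2 passed at -0.17 (adjusted p = 0.0494 by limma), and DDOST passed after normexp background correction (0.26).

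The paralogs were also compared within arrays, as the difference between the responses of 2 genes, over 5 pairs. The response of TRAM1 minus that of TRAM2 was -0.67 on the log2 scale (SE 0.09), and the groups did not overlap. That of SEC61A1 minus that of SEC61A2 was -0.44 (SE 0.13), also without overlap of the groups; after normexp background correction this difference was 0.43. SEC11A minus SEC11C gave 0.23 (SE 0.04), again without overlap. For these 3 pairs the two-sided exact permutation p was 0.1, the smallest that 3 arrays against 3 can give, or 0.167 after Benjamini-Hochberg adjustment over the 5 pairs. How often other pairs of genes show no overlap was not computed. Among all single genes the groups did not overlap in 32.2% (lower) and 24.3% (higher). STT3A against STT3B gave -0.09 (SE 0.08, exact p = 0.4, adjusted 0.5) and TUSC3 against MAGT1 -0.08 (SE 0.09, exact p = 0.6, adjusted 0.6), both with overlapping groups; these p-values do not show that the paralogs responded alike. Within slide 2 the STT3A against STT3B difference was 0.06.

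**Figure D4:**
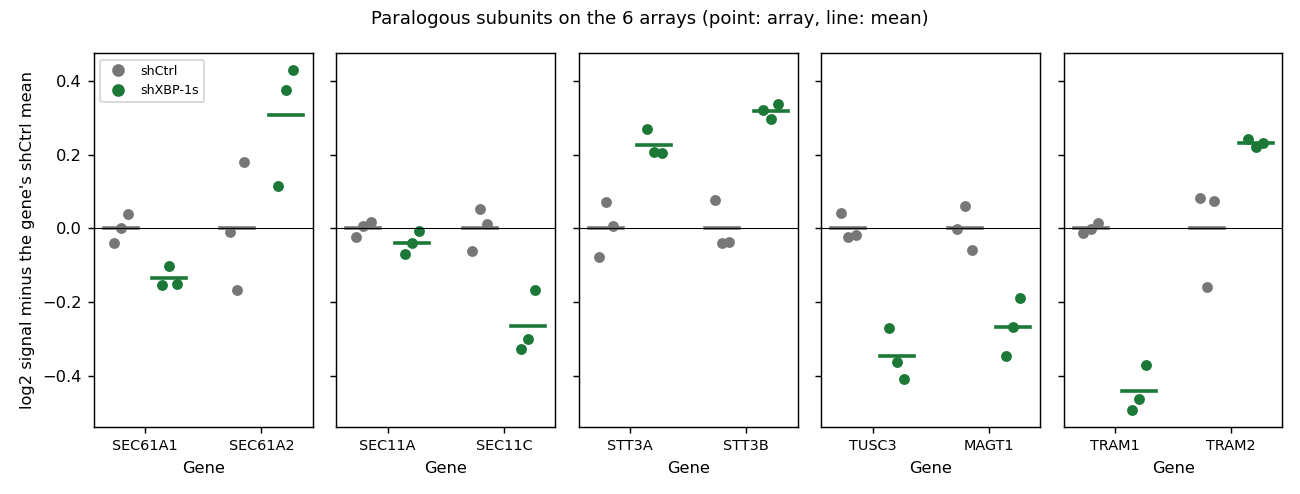
Array-scaled log2 signal minus the gene's shCtrl mean for both genes of 5 paralogous pairs, with 1 point per array (n = 3 per group) and a line for the group mean. The shXBP-1s points of TRAM1 lie low and those of TRAM2 high, while both genes lie low for TUSC3 and MAGT1 (by the brightest MAGT1 probe) and high for STT3A and STT3B.

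Neighbouring steps of ER entry and glycosylation were read from 7 further lists of 64 genes, of which 60 were tested. In them, 18 genes were lower (30%) and 7 higher (11.7%), with a median of -0.06, so the share of lower genes lay closer to that of all genes (27.5%) than it did in the 36 members. BiP (HSPA5), the luminal chaperone that pulls chains through the channel, read 1.19, 1.21 and 1.25 on the shCtrl arrays and 0.21, 0.13 and 0.16 on the shXBP-1s arrays. Its change was -1.05 (SE 0.04, adjusted p = 2.67e-06). Its nucleotide exchange factor HYOU1 changed by -0.37, and the other exchange factor SIL1 read -0.07 and did not pass. In 4 of the 18 alternatives, 1 of these 3 genes was lower instead of 2. Among them were the fit without shCtrl replicate 3 and that with the slide as a block.

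The lipid-linked glycan that oligosaccharyltransferase transfers is built by a chain of enzymes, and 8 of 24 of their genes (33.3%, against 27.5% of all genes) were lower and none was higher (against 18.9%). Over the alternatives 4 to 11 were lower and 0 to 4 higher, with 2 higher without shCtrl replicate 1. The lowest were the mannosyltransferase ALG9 and DPM3, the subunit that anchors dolichol-phosphate mannose synthase, each at -0.56. Of the genes for glycan trimming and lectin binding, the steps after transfer, 3 of 9 were higher (33.3%, against 18.9% of all genes) and none was lower (1 without shXBP-1s replicate 1); in the deposited log2 values 5 were higher. The difference between these lists was not tested. GANAB, the catalytic subunit of glucosidase II, read 2.08, 2.04 and 1.74 on the shCtrl arrays and 2.88, 2.89 and 2.88 on the shXBP-1s arrays, a change of 0.93 (SE 0.09, adjusted p = 8.15e-05). Its partner subunit PRKCSH changed by 0.57 and the glucosyltransferase UGGT2 by 0.40. PRKCSH was a dim probe, at 104.6 to 243.3 intensity units. The change of PRKCSH was 0.05 after normexp background correction and 0.39 with quantile normalization added.

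On other routes into the ER membrane the counts were small and are to be read against 27.5% lower and 18.9% higher of all genes. The ER membrane complex, an insertase, held 4 lower (40%) and 2 higher (20%) of 10 genes, and the pathway for tail-anchored proteins 2 lower of 6 (33.3%). The translocon for multipass proteins held 2 higher of 6 genes (33.3%), CCDC47 at 0.57 and NOMO1 at 0.31. NOMO1 passed narrowly (adjusted p = 0.0413 by limma), with 0.30, 0.07 and -0.13 on the shXBP-1s arrays. Its call was lost with the slide as a block (adjusted p = 0.256 by limma). NOMO1 has near-identical copies, NOMO2 and NOMO3, that its probe may also read. Over the alternatives, 0 to 4 genes of the ER membrane complex and 1 or 2 of the tail-anchor pathway were lower, and 1 to 3 of the multipass translocon higher. The multipass translocon count was 1 in 11 of the 18 alternatives, and the tail-anchor count was 1 in 10. TMEM258, a further oligosaccharyltransferase subunit, changed by -0.20, and RRBP1, a ribosome-binding protein of the ER membrane, by -0.48.

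**Figure D5:**
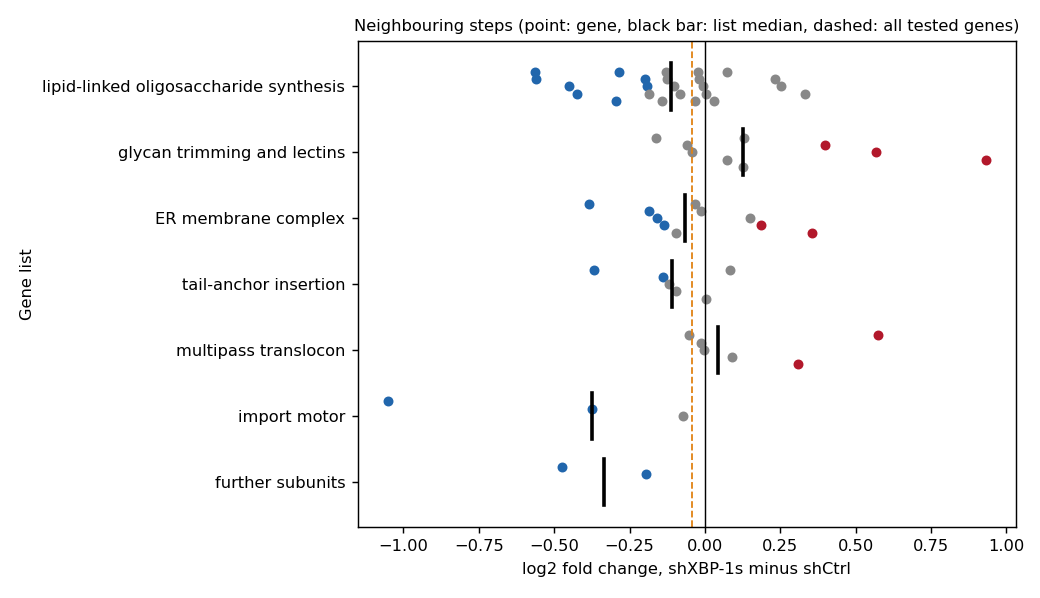
Log2 fold change (shXBP-1s minus shCtrl) of the 60 tested genes of 7 neighbouring lists, 1 point per gene, with blue lower, red higher and grey not called at an adjusted p of 0.05, a black bar for the median of each list and a dashed line for all tested genes. The called genes of the lipid-linked oligosaccharide list lie to the left and those of the trimming list to the right, with HSPA5 at -1.05 and GANAB at 0.93 as the extremes.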

How the data were processed

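Total RNA of 3 shCtrl and 3 shXBP-1s samples was measured on single-colour Agilent arrays with the Cy3 dye. The labels describe a NimbleGen labelling procedure, whereas the scanner files give Agilent Feature Extraction 11.0.1.1. In these files the authors deposited the intensity of each spot after background subtraction, not normalized between arrays. A table of log2 values was deposited as well, with equal quartiles on the 6 arrays and a floor under low values; the submitters' processing notes name RMA, without saying for which step. That table was used only as an alternative.

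For each of the 44495 spots but 1377 controls, the background-subtracted signal was put on the log2 scale, and the 75th percentile of all such signals on that array was set to 0. Spots with a non-uniformity or population outlier mark were left out (230 to 377 per array), spots of a probe were averaged, and 19 probes were without a value. Of 34127 probes, 27624 were tested, being well above background (more than 50% of their spots) on all 3 arrays of at least 1 group. They were fitted in R 4.3.3 with limma 3.58.1 (lmFit, eBayes with trend), with two-sided p-values and Benjamini-Hochberg adjustment over all tested probes, and called at an adjusted p below 0.05. The limma fit was also run on simulated arrays with independent noise, few changed probes and no slide effect, unlike these data. Symbols came from RefSeq accessions (GRCh38.p14; 25771 probes matched), and a gene is represented by its brightest tested probe. The array annotation is of hg19, so no gene coordinates are given; the promoter windows carry their own build. The number of arrays limits the precision, and 3 against 3 allow no exact p below 0.1.

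Named in full are XBP1, members called and changed by at least 1.5-fold, both members of each paralog pair, and members with probes called in opposite directions; other members are given by their log2 fold change. Of the other lists, genes called and changed by at least 1.5-fold follow the rule, and further genes were named after their values were seen, as were arrays of SRP72, SEC63, SSR3, SPCS2 and RPN1. The members, the lists and the tests were chosen with earlier results of these data known. BAG6, NOMO2 and NOMO3 had no matched probe and TRAM1L1 was not tested. The result of 1 cell type marker is not reported here.

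Results were recomputed after normexp background correction (offset 50, on the median spot signal) with or without quantile normalization, after quantile normalization alone, and from the deposited log2 table. Further alternatives kept all probes or only those above background on all 6 arrays, or left the trend out of limma. Others used the methods' t-test (raw and adjusted p) or blocked on replicate number or on slide. The last averaged all probes of a gene or left out each array in turn. Counts at 2-fold or more beside the adjusted p were given separately and are not among these 18 alternatives.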

Additional observations from a re-analysis of the deposited data

How the results depend on the processing

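Normexp background correction shifted the median of all tested genes to -0.29, with the member median at -0.0315. It left 8 members lower (13 probes), and 7 lower and 4 higher genes in the other lists. All tested genes called lower were then 1935 (11.5%) instead of 4619, and 9.27% were higher. Under it the median of the ER membrane complex turned to 0.0501, SEC61A1 minus SEC61A2 to 0.43 and STT3A minus STT3B to 0.0673; the last was 0.0623 with the slide as a block, which also left 5 member probes higher. The cause was not tested. The member median was -0.0601 after normexp with quantile normalization, -0.0766 after quantile normalization and -0.0541 in the deposited log2 values. Under the latter 2 settings 11 of the 60 tested genes of the other lists were higher, where 22% and 22.4% of all tested genes were. The methods' t-test with adjustment left 4 members higher (11.1%, 4 probes), against 14.6% of all tested genes, and lost OST4, RPN1 and TRAM2. Limma without trend lost RPN1, SEC61A1 and TRAM2. MAGT1 turned to 0.0643 as the mean over its probes, where SEC63 (-0.71) and SRP72 (-0.32) passed.

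Leaving out 1 array at a time gave 13 to 16 lower members (36.1% to 44.4%) and 4 to 7 higher members (11.1% to 19.4%). Of all tested genes 21.7% to 29.1% were then lower and 13.6% to 20.9% higher. Among member probes 18 to 21 were lower and 4 to 8 higher. The fewest higher calls came without shXBP-1s replicate 2, both among the members and among all tested genes. The count of members lower by at least 2-fold was 0 or 1. Replicate numbers did not pair the samples: the correlations of same-numbered deviations were -0.016, 0.117 and -0.116. With the replicate block 14 members were lower (38.9%, against 26.3% of all tested genes) and 7 higher (19.4%, against 18.7%), SEC61A1 being the 1 call lost. The dim probe of SEC61A2 read 0.31 in the values reported and -0.55 after normexp background correction; the dim probe of SEC62 read -1.09 after normexp alone and -0.60 with quantile normalization added.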
